A study of Homo sapiens with 16 samples.

Results

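The genes described here are 32 genes of the unfolded protein response of the endoplasmic reticulum (ER), taken by symbol from a table of 17552 genes with values in HT-1080, a human cell line from a fibrosarcoma. They are stress sensors and transcription factors, chaperones, lectins, disulfide isomerases, secreted stress proteins, factors of ER-associated degradation, and factors of translocation and export. The cells carried an siRNA against DCAF8 (siDCAF8), overexpressed WDR76 (oeWDR76), carried siRNAs to both DCAF8 and LSH (siDCAF8+siLSH), or carried the control siRNA (siNS). Each state was sequenced with and without erastin, an inhibitor of the cystine antiporter system xc-, at 10 µM for 24 h, which gives 8 groups of 2 libraries. DCAF8 is a substrate receptor of CUL4 ligases, WDR76 has WD40 repeats, and LSH is the chromatin remodeler encoded by HELLS. The labels give no empty-vector library for oeWDR76, no number of siRNAs per target, and no word on whether the paired libraries of a group are separate cultures. Every p-value here therefore measures only the spread between these libraries, which may be technical.

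The ER folds secreted and membrane proteins. When unfolded chains accumulate, HSPA5 (BiP) leaves the lumenal parts of the stress sensors. EIF2AK3 (PERK) phosphorylates eIF2alpha and favours translation of ATF4. ERN1 (IRE1) splices XBP1 mRNA into the form that encodes an active factor, and ATF6 is cut in the Golgi to release another. ATF6 and spliced XBP1 raise transcription of chaperones, isomerases and degradation factors, in fibroblast-like cells as in others, while a gene-level FPKM of XBP1 cannot tell its spliced from its unspliced form.

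The elements that carry this transcription are short and are shown here because they mark which members hold the textbook ER stress motif near their start. The ER stress element (ERSE) was searched as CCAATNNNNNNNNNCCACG, whose CCAAT is known to bind NF-Y and whose CCACG is known to bind ATF6 or XBP1. ERSE-II was searched as ATTGGNCCACG, and the unfolded protein response element (UPRE) as TGACGTGG, each on both strands of the RefSeq window around each gene's start on GRCh38.p14. Promoter windows were matched for 28 of the 32 members. ERSE stood in 6 of these 28, against 22 of 27305 windows of all genes (0.0806%). ERSE-II stood in 3 of 28, against 15 of 27305 (0.0549%). UPRE stood in 1 of 28, in HYOU1 where it overlaps an ERSE-II, against 217 of 27305 (0.795%). These 27305 windows include those of the members. Of 9255 windows of other tested genes, ERSE stood in 10, ERSE-II in 7 and UPRE in 88. Members and motifs were both chosen as known parts of ER stress, so these counts are not independent support. The 11 matches of ERSE or ERSE-II in 9 members are given in the direction of the motif, with the fixed letters in capitals.
HSPA5: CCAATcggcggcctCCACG
HSP90B1, nearer to the start: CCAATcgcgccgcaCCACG
HSP90B1, farther from the start: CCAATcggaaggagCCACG
CALR: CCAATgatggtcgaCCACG
CANX: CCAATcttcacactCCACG
CRELD2: CCAATccgagttcgCCACG
XBP1: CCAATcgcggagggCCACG
SDF2L1: ATTGGtCCACG
HERPUD1: ATTGGgCCACG
HYOU1, both matches: ATTGGaCCACG

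In HSPA5, which encodes the main ER HSP70, the exact match to ERSE lies 66 to 48 bases upstream of the start. In XBP1 it lies 52 to 34 bases upstream, and in CRELD2, a gene for a secreted stress protein, 80 to 62 bases upstream. These windows end just before the start site. They are shown because the 3 genes gave different erastin responses with an exact match at a similar distance. The exact match is in capitals, in HSPA5 and XBP1 on the strand of the gene and in CRELD2 on the opposite strand. A match describes letters only. Sites that differ from the motif in any fixed letter were not sought or marked, and the HSPA5 stretch holds such a site in small letters.
HSPA5, chr9:125241344-125241503, minus strand: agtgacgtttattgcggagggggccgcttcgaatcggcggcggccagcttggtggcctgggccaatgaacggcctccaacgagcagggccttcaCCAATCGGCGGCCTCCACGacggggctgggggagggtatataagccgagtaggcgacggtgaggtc
XBP1, chr22:28800570-28800689, minus strand: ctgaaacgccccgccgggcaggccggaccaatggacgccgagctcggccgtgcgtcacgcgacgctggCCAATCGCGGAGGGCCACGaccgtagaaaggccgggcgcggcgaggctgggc
CRELD2, chr22:49918514-49918633, plus strand: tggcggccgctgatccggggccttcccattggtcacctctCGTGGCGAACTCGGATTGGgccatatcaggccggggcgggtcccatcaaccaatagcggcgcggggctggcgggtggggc

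The targeted genes were read first. DCAF8 stood at 11.8 and 12.23 FPKM (fragments per kilobase, scaled to the library, so a level per length) in siDCAF8, against 38.9 and 40.43 FPKM in siNS. WDR76 stood at 267.77 and 267.14 FPKM in oeWDR76, against 3.52 and 2.89 FPKM in siNS. HELLS stood at 4.05 and 4.07 FPKM in siDCAF8+siLSH, against 6.83 and 7.45 FPKM in siDCAF8, and against 4.05 and 3.98 FPKM in siNS, from which it was not called different. With erastin HELLS stood at 2.12 and 2.36 FPKM in siDCAF8+siLSH/Erastin, against 3.6 and 3.37 FPKM in siNS/Erastin, and was called lower (-0.47, adjusted p = 2.14e-05). The targeted genes also differed from siNS in other states without erastin. HELLS was called higher in oeWDR76 (1.24, adjusted p = 1.39e-10) and in siDCAF8 (0.70, adjusted p = 3.63e-07). DCAF8 was called lower in oeWDR76 (-0.31, adjusted p = 0.00265). WDR76 was called higher in siDCAF8+siLSH (1.04, adjusted p = 3.21e-07) and in siDCAF8 (0.55, adjusted p = 0.00032). Library totals were 436290 to 503867 FPKM. The oeWDR76 libraries, with and without erastin, stood apart on the first principal component, and in them the slope of levels on GC content was 0.185 to 0.231 log2 for each 10% of GC, against -0.156 to 0.0285 in the other 12. Of 8 mesenchymal markers 6 were at 1 FPKM or more in every library, while THY1 and NT5E stayed under 0.5 FPKM. Epithelial markers summed to 1.26 to 6.16 FPKM, blood markers to 1.7 to 3.6 FPKM and endothelial markers to 0.88 to 4.1 FPKM.

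Of the 32 members, 31 averaged 1 FPKM or more over the 16 libraries and were tested. DERL3, a derlin of ER-associated degradation, was listed at 0 in 13 libraries and reached at most 0.11 FPKM. It is annotated on an alternate contig and shares 87.3% of its exon bases with SMARCB1 on the opposite strand, so its few reads cannot be assigned. Per length, CALR was the most abundant member, with 733.962 FPKM over the 16 libraries, followed by HSP90B1 with 566.431 FPKM and HSPA5 with 266.743 FPKM. The sensors EIF2AK3 and ERN1 were the least abundant tested members, with 4.22 and 5.18 FPKM. The spread of group means was widest in ERN1 (10.8 times), SDF2L1 (6.15 times), CRELD2 (5.22 times) and MANF (5.05 times), and narrowest in DERL1 (1.14 times) and SYVN1 (1.18 times). The lowest group mean of a member lay in siDCAF8/Erastin for 17 of the 31, more than in any other group. The same count over all tested genes was not made, so this cannot be read as particular to the members. The siDCAF8/Erastin libraries also had low totals, 436480 and 437329 FPKM. The map of member levels shows each member by library.

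**Figure D1:**
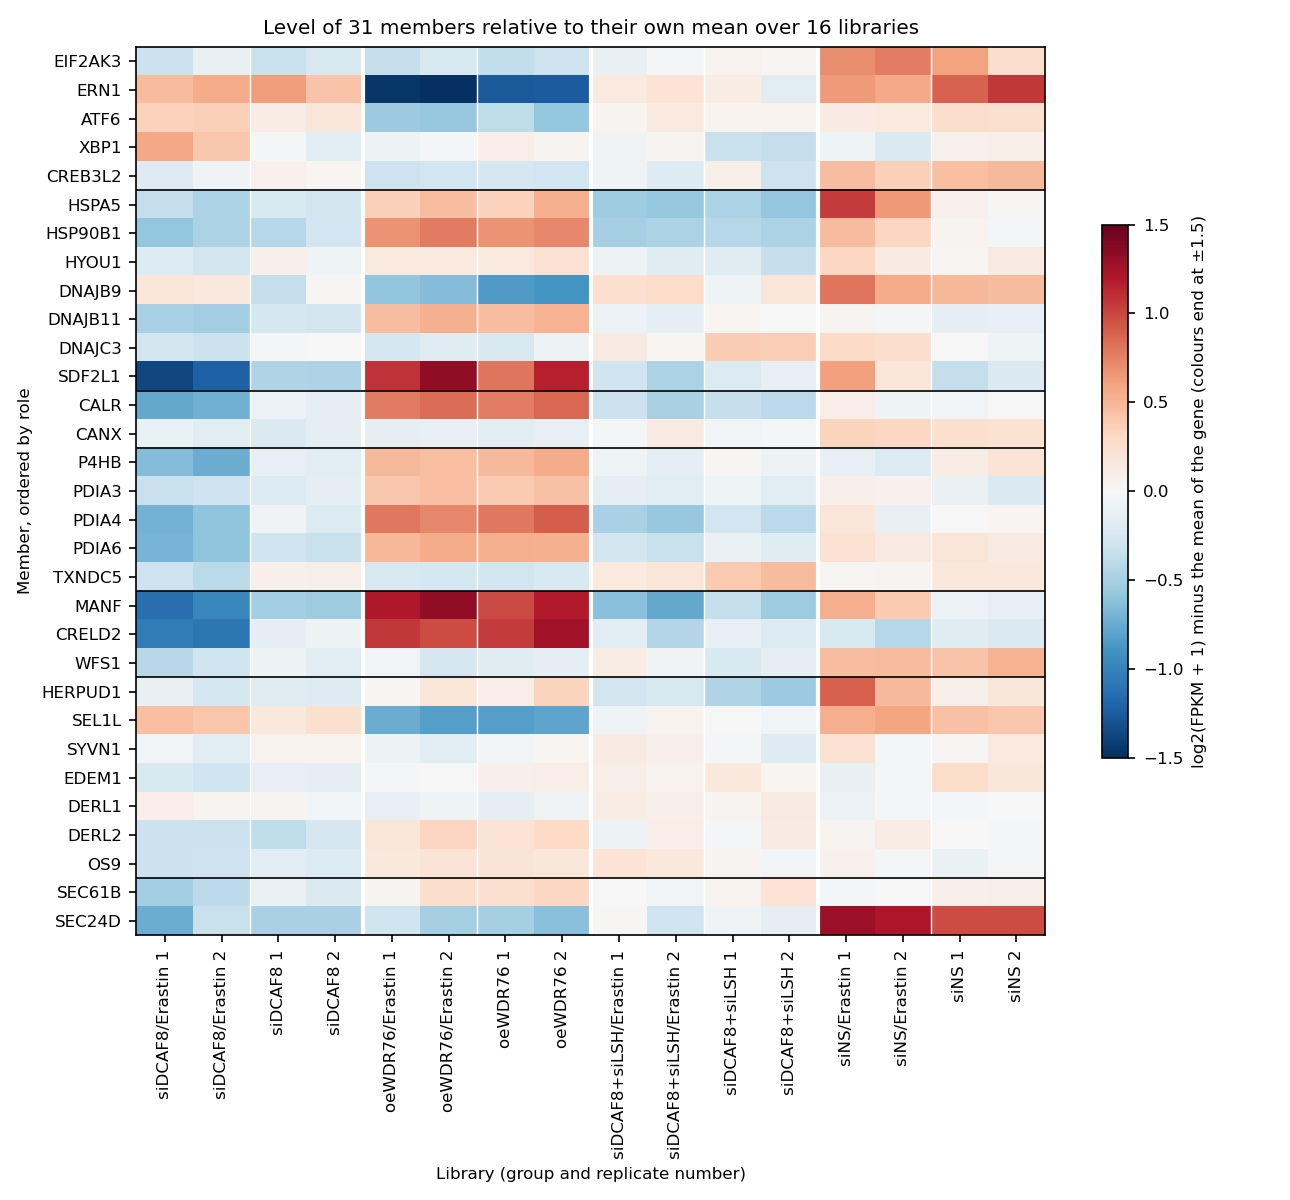
Colours give log2(FPKM + 1) of 31 members (rows, ordered by role, black lines between roles) in 16 libraries (columns), each minus the mean of the gene. HSP90B1, DNAJB11, SDF2L1, CALR, P4HB, PDIA3, PDIA4, PDIA6, MANF and CRELD2 are red in the 4 oeWDR76 libraries and blue in siDCAF8/Erastin, while ERN1, SEL1L and DNAJB9 are blue in oeWDR76 and SEC24D is red in siNS with and without erastin only.

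The erastin comparisons ask which members move under erastin, and the counts of calls differed by state of the cells. Cystine uptake was not measured, and the difference between states is tested further below. A gene was called at an adjusted p under 0.05 in limma, over all 11260 genes tested. In siDCAF8, 19 of 31 members were called, 4 higher and 15 lower, against 40.9% of all tested genes called (18.3% higher and 22.5% lower). In oeWDR76, 0 of 31 were called, against 1.45% of all tested genes, with 3 members (ERN1, DNAJB9 and MANF) at an unadjusted p under 0.05, and 0 were called under each alternative run. In siDCAF8+siLSH, 6 were called, 2 higher and 4 lower, against 20.2% (10.6% higher and 9.54% lower). In siNS, 13 were called, 9 higher and 4 lower, against 37.5% (15.1% higher and 22.4% lower). The members' median log2 difference was -0.17 in siDCAF8, -0.00421 in oeWDR76, -0.03 in siDCAF8+siLSH and 0.08 in siNS, beside -0.02, 0.00563, 0.01 and -0.03 over all tested genes. At 2-fold or more 0 members were called in any state, against 0.258%, 0.0533%, 0.187% and 0.586% of all tested genes.

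**Figure D2:**
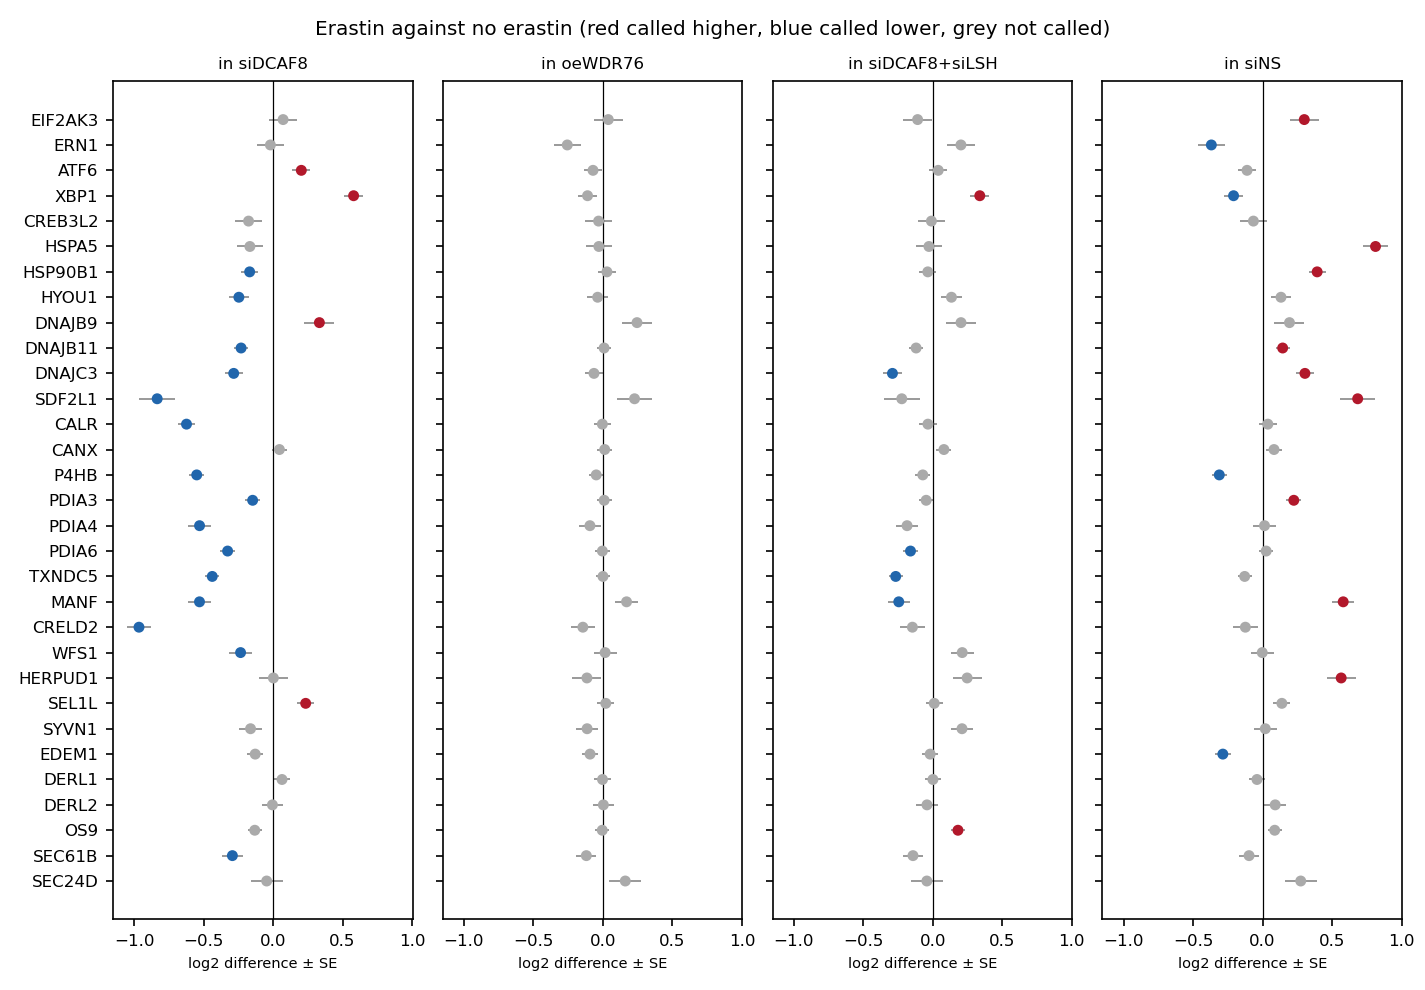
Points are log2 differences of FPKM plus 1 (x axis) between erastin and no erastin for 31 members (y axis), with bars of 1 SE, in siDCAF8, oeWDR76, siDCAF8+siLSH and siNS. HSPA5, HSP90B1, DNAJB11, DNAJC3 and SDF2L1 lie right of 0 in siNS and left of 0 in siDCAF8, DNAJB9 lies right of 0 in both, and the points of oeWDR76 lie between -0.26 and 0.25 and are not called.

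The chaperone system of BiP gave the largest rises under erastin in siNS. Summed over all members, siNS/Erastin had 4016.38 FPKM in replicate 1 and 3601.39 FPKM in replicate 2, against 3332.87 and 3335.81 FPKM in siNS. The gap between the erastin libraries was thus not limited to single genes. HSPA5 had 519.61 and 395.61 FPKM in siNS/Erastin, against 261.44 and 253.97 FPKM in siNS. The groups did not overlap, both erastin libraries were high, and the first was far above the second. The log2 difference was 0.81 ± 0.09 (SE, adjusted p = 6.70e-06), and 0.62 to 1.01 when each library was left out in turn. In siDCAF8/Erastin it had 194.86 and 180.73 FPKM, against 214.3 and 207.46 FPKM in siDCAF8, and this difference of -0.17 ± 0.09 was not called (adjusted p = 0.163, 95% interval -0.36 to 0.03). The groups again did not overlap, with both erastin libraries below. With 2 libraries a group, such separation is common without any difference. Its share over all tested genes was not counted, here or below. HSPA5 also stayed uncalled under erastin in oeWDR76 (log2 -0.03, 95% interval -0.23 to 0.17) and in siDCAF8+siLSH (-0.03, -0.22 to 0.17).

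SDF2L1, a cofactor that keeps BiP substrates soluble, had 40.9 and 29.81 FPKM in siNS/Erastin, against 20.37 and 22.39 FPKM in siNS. It rose there by 0.68 ± 0.13 log2 (adjusted p = 0.000593), with the first erastin library far above the second. In siDCAF8/Erastin it had 9.62 and 10.67 FPKM, against 18.9 and 18.8 FPKM in siDCAF8, so that the groups were well apart in the other direction. SDF2L1 fell there by 0.83 log2 (SE 0.13, adjusted p = 0.000108). HSP90B1 (GRP94), the ER HSP90, had 740.41 and 662.82 FPKM in siNS/Erastin, against 545.74 and 521.24 FPKM in siNS, a rise of 0.39 ± 0.06 log2 (adjusted p = 0.000140). In siDCAF8 its fall of 0.17 (log2 -0.17 ± 0.06, adjusted p = 0.0392) was lost without siDCAF8 replicate 2 or siDCAF8/Erastin replicate 1 (-0.10 at the smallest) and under median-ratio scaling and quantile normalization.

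Cochaperones were called in part. DNAJC3 (p58IPK), a cochaperone of BiP, had 21.26 and 20.89 FPKM in siNS/Erastin, against 17.33 and 16.42 FPKM in siNS (log2 0.30 ± 0.07, adjusted p = 0.00168), and 14.1 and 13.56 FPKM in siDCAF8/Erastin, against 16.94 and 17.16 FPKM in siDCAF8 (-0.28 ± 0.07, adjusted p = 0.00265). DNAJB11, another J-domain cochaperone, had log2 differences of -0.23 ± 0.05 in siDCAF8 (adjusted p = 0.00184) and 0.14 ± 0.05 in siNS (adjusted p = 0.0331), the second lost without siNS replicate 1, siNS replicate 2 or siNS/Erastin replicate 1. DNAJB9 (ERdj4), known to repress IRE1 in mammalian cells, was called higher in siDCAF8 (0.33 ± 0.11, adjusted p = 0.0214). That value was 0.14 without siDCAF8 replicate 1 and 0.53 without siDCAF8 replicate 2. The call was lost in the first case, without either siDCAF8/Erastin library, and after regression on GC content and length. This joint regression is meant wherever correction for GC content, or GC content regressed out, is named below. Losses under it cannot be credited to GC content alone. HYOU1, a nucleotide exchange factor of BiP, was called lower in siDCAF8 (-0.25 ± 0.07, adjusted p = 0.0137), a call lost without siDCAF8 replicate 1 or siDCAF8/Erastin replicate 2 and after correction for GC content. In this role 5 of 7 members were called higher in siNS and 0 lower, and in siDCAF8 1 was called higher and 5 lower. Of all tested genes 15.1% and 22.4% were called higher and lower in siNS, and 18.3% and 22.5% in siDCAF8.

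Among the sensors and transcription factors, XBP1 was called higher in siDCAF8. It had 109.75 and 96.79 FPKM in siDCAF8/Erastin, against 72.18 and 65.31 FPKM in siDCAF8. Both erastin libraries were the highest of all 16, and the log2 difference was 0.58 ± 0.07 (adjusted p = 1.22e-05). In siDCAF8+siLSH/Erastin it had 70.34 and 75.08 FPKM, against 57.65 and 56.89 FPKM in siDCAF8+siLSH (0.34 ± 0.07, adjusted p = 0.00255). In siNS/Erastin it had 69.79 and 62.48 FPKM, against 76.17 and 76.79 FPKM in siNS, called lower at -0.21 ± 0.07 (adjusted p = 0.0253). That last call was lost without siNS replicate 1, siNS replicate 2 or siNS/Erastin replicate 2 (-0.13 at the smallest), with no filter, and under each of 3 scaling alternatives. ATF6 was called higher in siDCAF8 (0.20 ± 0.07, adjusted p = 0.0218), lost without siDCAF8 replicate 1 or either siDCAF8/Erastin library and after correction for GC content. In siNS, EIF2AK3 was called higher (0.30 ± 0.10, adjusted p = 0.0302) and ERN1 lower (-0.37 ± 0.10, adjusted p = 0.00747). Both calls were lost without siNS replicate 2 or siNS/Erastin replicate 2, the first also without siNS/Erastin replicate 1, and EIF2AK3 ranged from 0.13 to 0.47 with libraries left out. CREB3L2, an ATF6-like factor of secretory cells, was called under erastin in no state.

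The disulfide isomerases form and rearrange disulfide bonds in the ER. Under erastin in siDCAF8 5 of 5 were called lower, of which PDIA3 is the least stable, beside 22.5% of all tested genes. P4HB (PDI) had 139.61 and 131.59 FPKM in siDCAF8/Erastin, against 201.45 and 196.34 FPKM in siDCAF8 (log2 -0.55 ± 0.06, adjusted p = 2.04e-06). PDIA4 (ERp72) had 42.72 and 46.11 FPKM in siDCAF8/Erastin, against 68.05 and 61.15 FPKM in siDCAF8 (-0.53 ± 0.08, adjusted p = 0.000112). In both genes the groups did not overlap. PDIA6 and TXNDC5 were called at -0.33 ± 0.05 and -0.44 ± 0.05 (adjusted p = 0.000148 and 7.23e-06). PDIA3 (ERp57), which works with calreticulin and calnexin, was called at -0.15 ± 0.05 (adjusted p = 0.0348), lost without siDCAF8 replicate 2 or either siDCAF8/Erastin library, under median-ratio scaling and quantile normalization, and in the fit restricted to both siDCAF8 groups. In siNS the isomerases split, with PDIA3 called higher (0.22 ± 0.05, adjusted p = 0.00331, lost without siNS replicate 2) and P4HB lower (-0.31 ± 0.06, adjusted p = 0.000379). TXNDC5 is uncertain, since 82.3% of its exon bases lie also in a read-through gene. The kit does not mark strand, so reads of opposite-strand genes cannot be told apart in PDIA6 (29.7% of exon bases shared), OS9 (24.4%), P4HB (20.3%), PDIA3 (16.8%), EIF2AK3 (16.2%), DNAJB11 (15.9%), CALR (14.2%) and HYOU1 (14.1%). DNAJB11 also shares 18.8% with a gene on its own strand. Pseudogenes named after PDIA3 (2), HSPA5 (1) and XBP1 (1) exist.

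Of the lectin chaperones, which hold glycoproteins for folding, CALR (calreticulin) had 402.63 and 416.34 FPKM in siDCAF8/Erastin, against 644.74 and 618.01 FPKM in siDCAF8. It fell there by 0.62 log2 (SE 0.06, adjusted p = 2.23e-06), and in siNS it was not called (0.04, adjusted p = 0.670). CANX (calnexin), its membrane-bound relative, was called under erastin in no state, with log2 differences of 0.05 in siDCAF8, 0.01 in oeWDR76, 0.08 in siDCAF8+siLSH and 0.08 in siNS. The secreted stress proteins gave the largest fall of any member under erastin. CRELD2 had 7.34 and 7.12 FPKM in siDCAF8/Erastin, against 14.77 and 15.37 FPKM in siDCAF8 (-0.97 ± 0.09, adjusted p = 8.87e-07), and 13.75 and 11.88 FPKM in siNS/Erastin, against 14.2 and 13.84 FPKM in siNS (-0.12, adjusted p = 0.288). MANF, a secreted neurotrophic factor that binds BiP, had 44.15 and 49.34 FPKM in siDCAF8/Erastin, against 68.45 and 67.22 FPKM in siDCAF8 (-0.53 ± 0.08, adjusted p = 9.72e-05). MANF had 143.63 and 129.03 FPKM in siNS/Erastin, against 91.9 and 89.57 FPKM in siNS (0.58 ± 0.08, adjusted p = 3.96e-05), so its direction was opposite in the pair of states. WFS1 (wolframin), an ER membrane protein, was called lower in siDCAF8 (-0.23 ± 0.08, adjusted p = 0.0332), lost without siDCAF8 replicate 1 or siDCAF8/Erastin replicate 1, with no filter, in the fit restricted to both siDCAF8 groups, and with GC content regressed out (-0.063).

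In ER-associated degradation, which returns misfolded proteins to the proteasome, 7 members were tested. In siDCAF8 1 was called higher under erastin and 0 lower, and in siNS 1 and 1. In oeWDR76 the counts were 0 and 0, and in siDCAF8+siLSH 1 and 0. Of all tested genes 18.3% and 22.5% were called higher and lower in siDCAF8, and 15.1% and 22.4% in siNS. The shares were 0.471% and 0.977% in oeWDR76, and 10.6% and 9.54% in siDCAF8+siLSH. With 7 members, a departure from these shares cannot be read from the counts. HERPUD1, a membrane organiser of the degradation complex, had 114.73 and 85.63 FPKM in siNS/Erastin, against 64.74 and 68.62 FPKM in siNS. The log2 difference was 0.57 ± 0.10 (adjusted p = 0.000533), and 0.36 without siNS/Erastin replicate 1, the high library. HERPUD1 had 56.45 and 50.87 FPKM in siDCAF8/Erastin, against 53.94 and 53.1 FPKM in siDCAF8, groups that overlapped (log2 0.00186, adjusted p = 0.991). EDEM1, a mannosidase-like factor that marks glycoproteins for removal, was called lower in siNS (-0.29 ± 0.06, adjusted p = 0.00134). SEL1L, the scaffold of the ligase SYVN1 (HRD1), was called higher in siDCAF8 (0.23 ± 0.06, adjusted p = 0.00599), lost without siDCAF8 replicate 1 and after correction for GC content. OS9, a lectin of the same complex, was called higher in siDCAF8+siLSH (0.18 ± 0.05, adjusted p = 0.0202), lost without siDCAF8+siLSH replicate 2 or siDCAF8+siLSH/Erastin replicate 1. SYVN1, DERL1 and DERL2, derlins being channel-like factors, were called under erastin in no state. Of the export and translocation pair, SEC61B, a subunit of the translocon, was called lower in siDCAF8 (-0.29 ± 0.07, adjusted p = 0.00448), lost without siDCAF8 replicate 1 or siDCAF8/Erastin replicate 1.

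In siDCAF8+siLSH the 6 calls under erastin were XBP1 and OS9 higher and DNAJC3, PDIA6, TXNDC5 and MANF lower. TXNDC5 had 130.31 and 134.23 FPKM in siDCAF8+siLSH/Erastin, against 154.94 and 163.77 FPKM in siDCAF8+siLSH (-0.27 ± 0.05, adjusted p = 0.00124). DNAJC3 had 18.98 and 17.7 FPKM, against 22.76 and 22.51 FPKM (-0.29 ± 0.07, adjusted p = 0.00500). MANF (-0.24, adjusted p = 0.0404) was at -0.16 without siDCAF8+siLSH replicate 1. The calls of XBP1 and TXNDC5 held without each library and the other 4 did not, with 3 calls left without siDCAF8+siLSH/Erastin replicate 2.

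**Figure D3:**
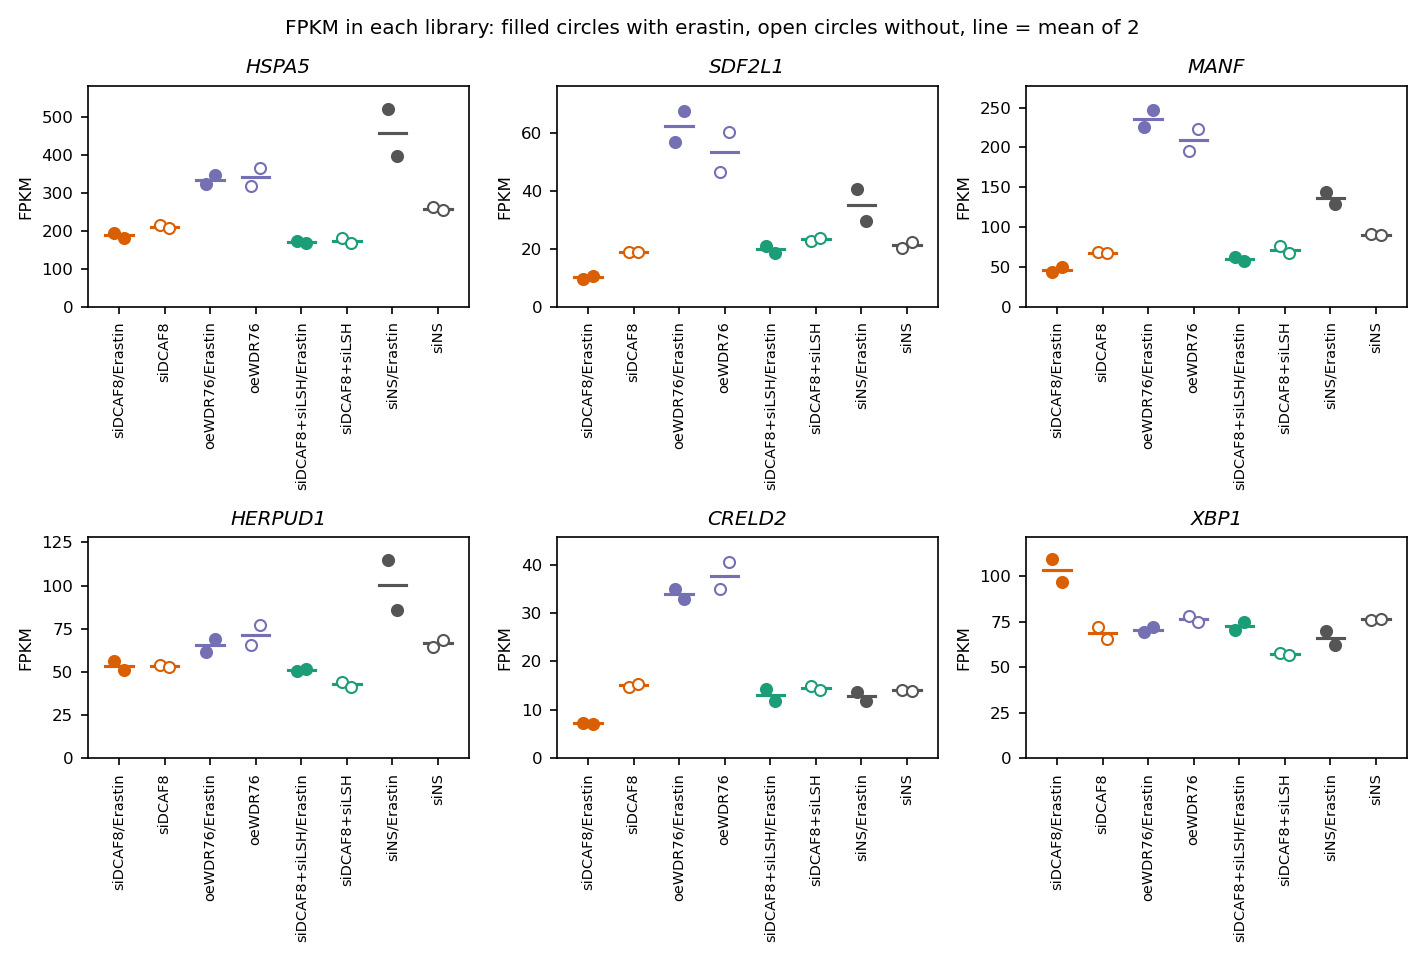
FPKM (y axis) of 6 members in each library, by group (x axis), filled with erastin and open without, with lines at the mean of 2. HSPA5, SDF2L1, MANF and HERPUD1 are higher in siNS/Erastin than in siNS, CRELD2 and SDF2L1 are lowest in siDCAF8/Erastin, and XBP1 is highest there.

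The difference between the erastin responses was tested directly. For siDCAF8 minus siNS, 18 of 31 members were called, 2 higher and 16 lower, against 20.8% of all tested genes (11% higher and 9.84% lower). Calls at 2-fold or more numbered 2, against 0.506%. The member median was -0.24, beside 0.00988 over all tested genes. The response was lower in siDCAF8 by 1.52 log2 for SDF2L1 (-1.52 ± 0.18, adjusted p = 5.44e-05), 1.11 for MANF (-1.11 ± 0.11, adjusted p = 1.02e-05) and 0.98 for HSPA5 (-0.98 ± 0.13, adjusted p = 0.000139). XBP1 and ATF6 were the 2 called higher, at 0.79 ± 0.10 (adjusted p = 6.96e-05) and 0.31 ± 0.09 (adjusted p = 0.0251). Called lower were 6 of 7 chaperones and cochaperones, 1 of 2 lectins, 5 of 5 isomerases, 2 of 3 secreted and resident stress proteins and 2 of 7 degradation factors. Of the 18 calls, 13 held when each of the 16 libraries was left out in turn, and those of ATF6, HYOU1, P4HB, HERPUD1 and OS9 did not. The libraries whose loss ended these calls included siNS replicate 1 and siNS/Erastin replicate 1 for all 5, and HERPUD1 stood at -0.35 without siNS/Erastin replicate 1.

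For oeWDR76 minus siNS, 6 members were called, 1 higher and 5 lower, against 14.1% of all tested genes (9.04% higher and 5.11% lower). Calls at 2-fold or more numbered 0, against 0.32%. HSPA5 was lower by 0.84 log2 (-0.84 ± 0.13, adjusted p = 0.000831) and HERPUD1 by 0.68 (-0.68 ± 0.15, adjusted p = 0.00665), and these 2 calls held without each library. The call of P4HB, the 1 called higher (0.26 ± 0.08, adjusted p = 0.0341), was lost under median-ratio scaling, where the split was 0 higher and 6 lower, and under quantile normalization, where it was 0 and 5. The count fell to 2 without siNS replicate 2, oeWDR76 replicate 2 or oeWDR76/Erastin replicate 1. Both differences share the siNS libraries, so they are not independent of each other.

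For siDCAF8+siLSH minus siDCAF8, 9 members were called, all 9 higher, against 23.5% of all tested genes called (14.2% higher and 9.24% lower). The split was 8 higher and 1 lower under median-ratio scaling, and 9 and 2 under quantile normalization. Calls at 2-fold or more numbered 0, against 0.0977%. CRELD2 (0.82 ± 0.13, adjusted p = 0.00160), SDF2L1 (0.61 ± 0.18, adjusted p = 0.0247), CALR (0.59 ± 0.09, adjusted p = 0.00159) and P4HB (0.48 ± 0.08, adjusted p = 0.00201) led this group, and the call of SDF2L1 was lost without either siDCAF8+siLSH library, siDCAF8 replicate 1, siDCAF8/Erastin replicate 1 or siDCAF8+siLSH/Erastin replicate 1. These differences moved with GC content. Across the 31 members, Pearson's r between the GC content of the transcript and the log2 difference was 0.85, and across all tested genes 0.70, with genes not being independent replicates. The 9 called members had a median GC content of 58.4%, against 45.4% for the 22 others. With GC content and length regressed out, 3 members were called (CALR at 0.46, CRELD2 at 0.57 and P4HB at 0.25), and 279 of all genes in place of 2642. Leaving out siDCAF8 replicate 1 or siDCAF8+siLSH/Erastin replicate 1 gave 4 calls, and leaving out siDCAF8+siLSH replicate 2 gave 5.

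GC content moved with the erastin response in siDCAF8 too, at r = -0.66 across the 31 members and -0.46 across all tested genes. The 15 members called lower had a median GC content of 53.0%, and the 4 called higher 40.9%. With the correction 15 members were called, 1 higher and 14 lower, in place of 4 and 15. The 1 still called higher was XBP1 (0.63), while SDF2L1 (-0.63), CRELD2 (-0.80) and CALR (-0.52) stayed called lower. For the response of siDCAF8 minus siNS the corrected values were -1.48 for SDF2L1, -1.09 for MANF, -1.01 for HSPA5 and 0.78 for XBP1, all called. In siNS alone r was -0.07 across the members.

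**Figure D4:**
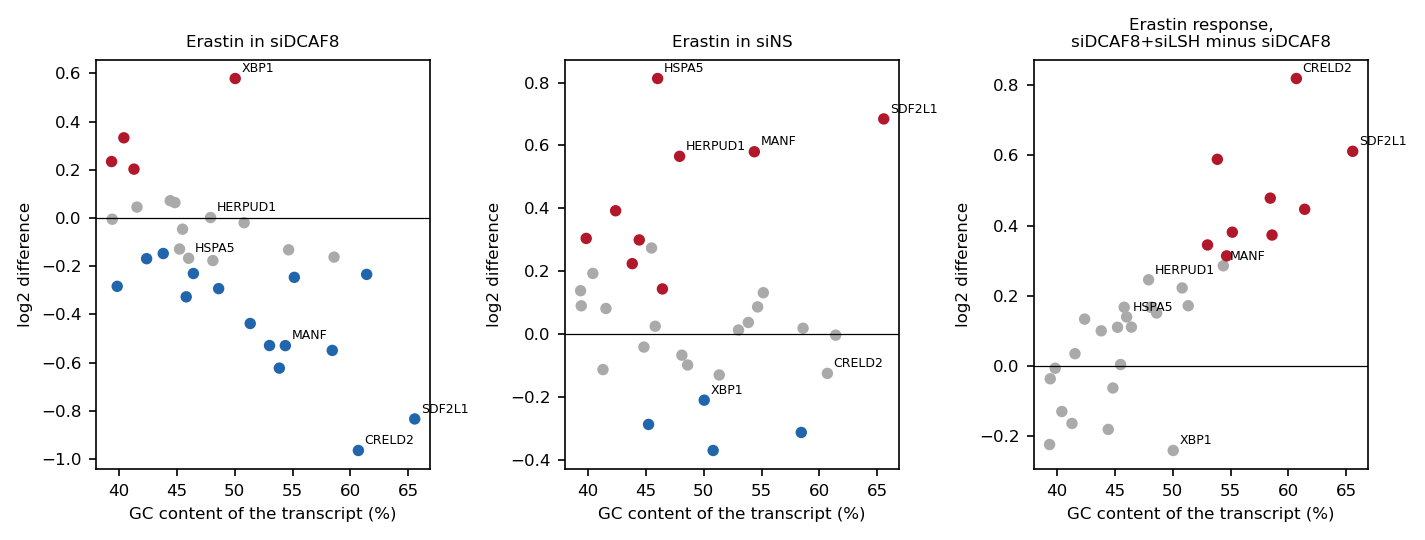
Each point is 1 of 31 members, with the GC content of its transcript in percent (x axis) and its log2 difference (y axis), red where called higher, blue where called lower and grey where not called. In siDCAF8 under erastin and in the response of siDCAF8+siLSH minus siDCAF8 the points follow GC content, and in siNS under erastin they do not, with HSPA5 highest at 46.0% GC.

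Depletion of DCAF8 was set against siNS in both treatments. Without erastin, 18 of 31 members were called in siDCAF8, 0 higher and 18 lower, against a background of 61% (31% higher and 29.9% lower). With erastin, 28 were called, 2 higher and 26 lower, against 64.8% (34.8% higher and 30% lower). At 2-fold or more 1 member was called without erastin, against 2.99%, and 4 with erastin, against 4.35%. The member medians were -0.24 without and -0.51 with erastin, beside 0.00860 and 0.03 over all tested genes. SEC24D, a cargo adaptor of COPII vesicles that leave the ER, had the largest difference. It had 9.02 and 9.02 FPKM in siDCAF8, against 26.7 and 26.68 FPKM in siNS, and 7.39 and 10.22 FPKM in siDCAF8/Erastin, against 33.42 and 31.59 FPKM in siNS/Erastin. The groups were far apart in both treatments, with SEC24D lower at -1.47 ± 0.12 (adjusted p = 2.07e-08) and -1.79 ± 0.12 (adjusted p = 1.57e-09).

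Without erastin the sensor EIF2AK3 was also lower in siDCAF8, with 2.99 and 3.26 FPKM, against 6.66 and 5.03 FPKM in siNS (-0.72 ± 0.10, adjusted p = 1.38e-05). ERN1, CREB3L2, DNAJB9, WFS1, PDIA6 and MANF were called lower there at -0.44, -0.42, -0.65, -0.60, -0.47 and -0.41. HSPA5 was called at -0.29 ± 0.09 (adjusted p = 0.0134), lost without siNS replicate 1 or siDCAF8 replicate 2, and CALR was not called (-0.10, adjusted p = 0.182). With erastin, all 7 chaperones and cochaperones, both lectins and all 5 isomerases were called lower in siDCAF8/Erastin than in siNS/Erastin. So were all 3 secreted and resident stress proteins, beside 30% of all tested genes called lower. There SDF2L1 was lower by 1.69 log2 (-1.69 ± 0.13, adjusted p = 8.68e-09), MANF by 1.52 (-1.52 ± 0.08, adjusted p = 1.70e-10) and HSPA5 by 1.27 (-1.27 ± 0.09, adjusted p = 6.22e-09). XBP1 and ATF6 were the 2 called higher (0.63 ± 0.07 and 0.21 ± 0.07, adjusted p = 5.73e-07 and 0.0107).

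In cells overexpressing WDR76, members were called in both directions. Without erastin 24 of 31 were called, 14 higher and 10 lower, against 73.6% of all tested genes called (41.6% higher and 32% lower). The split was 12 higher and 15 lower with quantiles equalised, and 11 and 12 once GC content was regressed out. With erastin 26 were called, 12 higher and 14 lower, against 76.2% (45.2% higher and 31% lower), and 7 higher and 16 lower under quantile normalization. At 2-fold or more 7 were called without erastin, against 9%, and 6 with erastin, against 11.2%. Median-ratio scaling moved the median of all genes by over 0.1 in that comparison, to 0.009 in place of 0.109. The oeWDR76 libraries stood apart as a whole, as given above, and what share of these values belongs to WDR76 cannot be told apart from that.

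Without erastin, 4 of 7 chaperones and cochaperones were called higher and 1 lower in oeWDR76, and 1 and 1 of 2 lectins. Of 5 isomerases 4 were called higher and 1 lower, and of 3 secreted and resident stress proteins 2 and 1. The background was 41.6% higher and 32% lower of all tested genes, and some of these counts lie near it. With erastin the 7 chaperones and cochaperones split into 3 higher and 3 lower, beside 45.2% and 31%. Differences between roles were not tested. CRELD2 had 34.89 and 40.53 FPKM in oeWDR76, against 14.2 and 13.84 FPKM in siNS (1.36 ± 0.09, adjusted p = 6.55e-10). SDF2L1 had 46.5 and 60.36 FPKM, against 20.37 and 22.39 FPKM in siNS (1.27 ± 0.13, adjusted p = 1.25e-07), and MANF had 196.02 and 223.77 FPKM, against 91.9 and 89.57 FPKM (1.20 ± 0.08, adjusted p = 9.03e-10). No library of the first group overlapped the second in these 3 genes. CALR, PDIA4, HSP90B1, DNAJB11 and PDIA3 were called higher at 0.83, 0.83, 0.69, 0.62 and 0.57. With GC content and length regressed out the values were smaller but still called for CRELD2 (0.90), SDF2L1 (0.67) and CALR (0.53). P4HB, among the isomerases called higher, lost its call in limma after that regression (0.056, adjusted p = 0.223). HSPA5 was called higher without erastin (0.40 ± 0.09, adjusted p = 0.000972) and lower with it (-0.44 ± 0.09, adjusted p = 0.000393), with 321.37 and 346.41 FPKM in oeWDR76/Erastin, against 519.61 and 395.61 FPKM in siNS/Erastin. The second difference was -0.25 without siNS/Erastin replicate 1.

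Among the sensors and factors, ERN1 had 1.24 and 1.25 FPKM in oeWDR76, against 8.88 and 10.12 FPKM in siNS, and it was the most changed member there (-2.22 ± 0.10, adjusted p = 5.61e-12). ATF6, EIF2AK3 and CREB3L2 were called lower at -0.73, -0.77 and -0.74, so that 4 of 5 were called lower and 0 higher. Of all tested genes 32% were called lower there and 41.6% higher. With GC content and length regressed out ATF6 stood at -0.34 and CREB3L2 at -0.46, both still called. XBP1 was not called (0.000897, adjusted p = 0.992), and stood at -0.20 under quantile normalization and at -0.24 with GC content regressed out. DNAJB9 had 4.43 and 4.26 FPKM in oeWDR76, against 12.76 and 12.55 FPKM in siNS (-1.35 ± 0.11, adjusted p = 7.24e-09). SEL1L had 8.88 and 9.17 FPKM, against 22.9 and 22.31 FPKM in siNS (-1.24 ± 0.06, adjusted p = 2.26e-11), and SEC24D had 9.0 and 8.14 FPKM, against 26.7 and 26.68 FPKM (-1.53 ± 0.12, adjusted p = 3.86e-09). In each of these genes the groups were far apart. CANX, TXNDC5 and WFS1 were called lower at -0.38, -0.41 and -0.63. The same regression left SEL1L at -0.79 and CANX at -0.19, both still called. OS9 and SEC61B were called higher (0.25 and 0.19). The call of OS9 was lost under quantile normalization and with GC content regressed out (0.030, adjusted p = 0.499), and the call of SEC61B was lost without siNS replicate 1, siNS replicate 2 or oeWDR76 replicate 2 and under median-ratio scaling. SEC61B turned to -0.016 with quantiles equalised and to -0.088 with GC content regressed out.

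**Figure D5:**
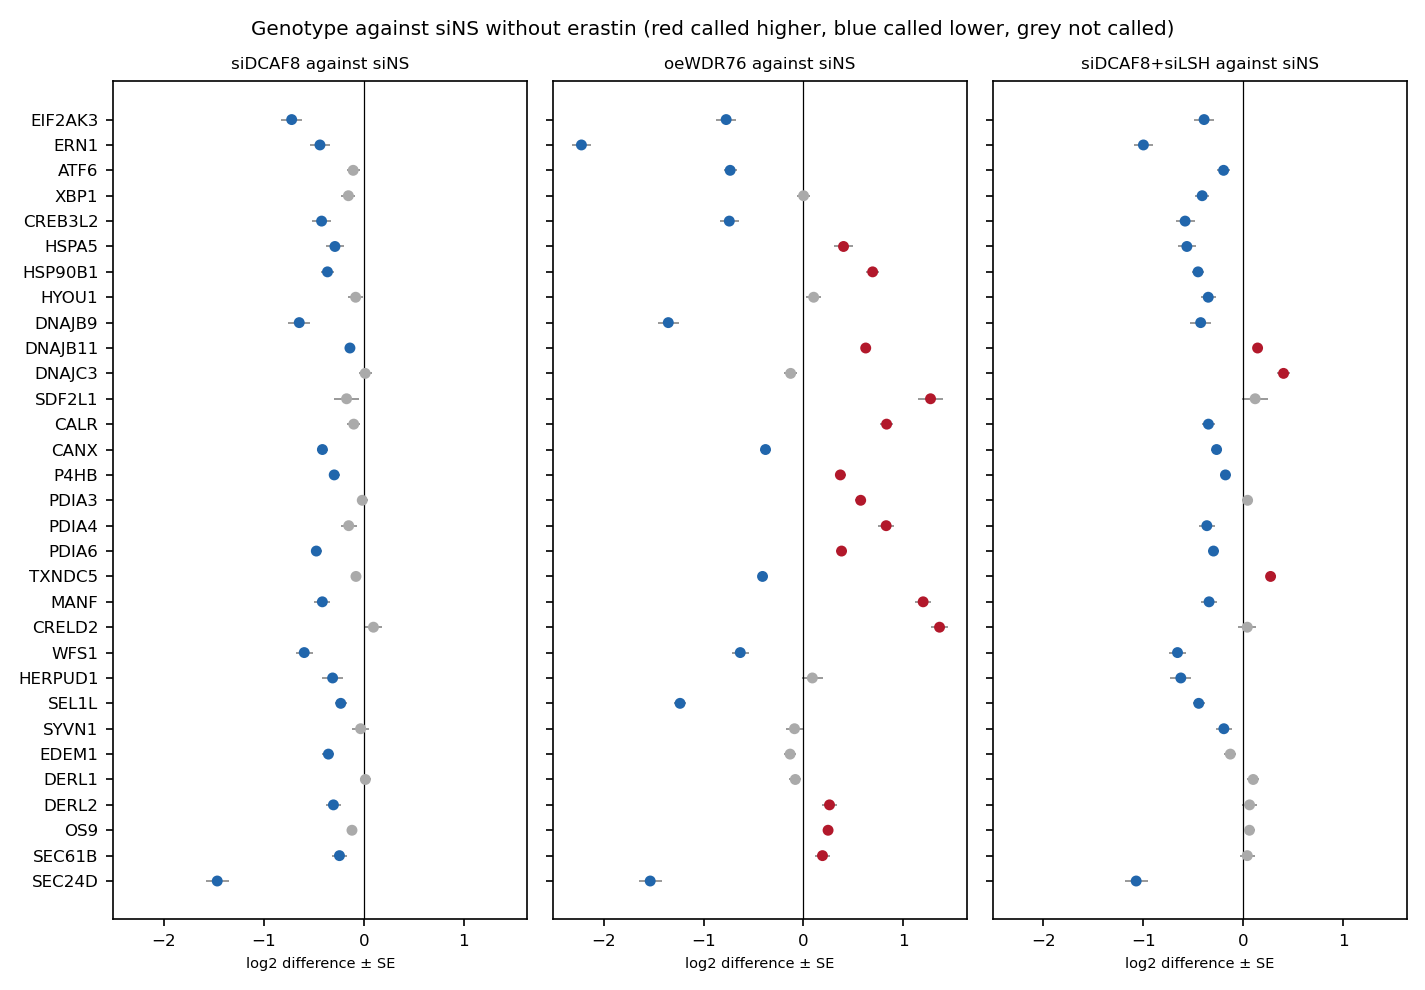
Points are log2 differences of FPKM plus 1 (x axis) against siNS without erastin for 31 members (y axis), with bars of 1 SE, in siDCAF8, oeWDR76 and siDCAF8+siLSH. SEC24D lies near -1.5 in siDCAF8 and oeWDR76 and at -1.07 in siDCAF8+siLSH, and in oeWDR76 CRELD2 lies at 1.36, SDF2L1 at 1.27, DNAJB9 at -1.35 and ERN1 at -2.22.

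Depletion of DCAF8 and LSH together was set against siNS and against siDCAF8. Against siNS without erastin 23 members were called, 3 higher and 20 lower, with a background of 66.8% of all tested genes called (35.9% higher and 30.9% lower). With erastin 24 were called, 4 higher and 20 lower, with a background of 66% (39.3% higher and 26.7% lower). At 2-fold or more 1 was called without erastin, against 5.15%, and 3 with erastin, against 4.43%. The 4 higher were 0 under median-ratio scaling and quantile normalization, and 1 after correction for GC content. HSPA5 had 173.15 and 168.15 FPKM in siDCAF8+siLSH/Erastin, against 519.61 and 395.61 FPKM in siNS/Erastin (-1.40 ± 0.09, adjusted p = 2.22e-09). ERN1 was called lower at -0.999 ± 0.10 without erastin (adjusted p = 1.54e-07), and HERPUD1 at -0.62 without and -0.94 with erastin (adjusted p = 5.63e-05 and 7.03e-07). DNAJC3 was called higher without erastin (0.40 ± 0.07, adjusted p = 3.97e-05) and lower with it (-0.19 ± 0.07, adjusted p = 0.0163, lost without siNS/Erastin replicate 1 or siDCAF8+siLSH/Erastin replicate 2).

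Against siDCAF8 without erastin 19 members were called, 11 higher and 8 lower, with a background of 48.2% (26.4% higher and 21.7% lower), and 12 were called without siDCAF8 replicate 1 or siDCAF8+siLSH replicate 2. With erastin 22 were called, 18 higher and 4 lower, with a background of 49.7% (30.4% higher and 19.3% lower). At 2-fold or more 0 were called in either, against 0.639% without and 0.808% with erastin. SDF2L1 had 21.09 and 18.6 FPKM in siDCAF8+siLSH/Erastin, against 9.62 and 10.67 FPKM in siDCAF8/Erastin (0.90 ± 0.13, adjusted p = 2.56e-05), and CRELD2 had 14.3 and 11.73 FPKM, against 7.34 and 7.12 FPKM (0.76 ± 0.09, adjusted p = 3.46e-06). XBP1 had 70.34 and 75.08 FPKM, against 109.75 and 96.79 FPKM in siDCAF8/Erastin (-0.50 ± 0.07, adjusted p = 2.01e-05). The groups did not overlap in these 3 genes. DCAF8 itself was less reduced in siDCAF8+siLSH than in siDCAF8, by 0.37 log2 in untreated cells (adjusted p = 0.00156) and by 0.54 under erastin (adjusted p = 4.54e-05), so this comparison differs in more than LSH.

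Other genes of the pathway were read from lists on the same fit. The arm of PERK and ATF4, a branch of the integrated stress response, had 19 tested genes. Under erastin, 9 of the 19 were called higher and 3 lower in siDCAF8, 0 and 8 in oeWDR76, 11 and 0 in siDCAF8+siLSH, and 0 and 10 in siNS. Of all tested genes, 18.3% were higher and 22.5% lower in siDCAF8, 0.471% and 0.977% in oeWDR76, 10.6% and 9.54% in siDCAF8+siLSH, and 15.1% and 22.4% in siNS. The median log2 differences were 0.15, -0.33, 0.38 and -0.35, beside the medians of all tested genes given above. In siNS the largest were CHAC1, a glutathione-degrading enzyme, at -2.74 (adjusted p = 3.75e-09), DDIT4, an inhibitor of mTORC1, at -2.01 (adjusted p = 2.11e-08), and TRIB3, a pseudokinase, at -1.42 (adjusted p = 2.11e-08). In siDCAF8 they were ASNS, asparagine synthetase, at 1.18 (adjusted p = 5.47e-06), SLC7A11, the system xc- subunit that erastin blocks, at 0.90 (adjusted p = 0.000356), and NUPR1, a stress-induced chromatin protein, at 0.78 (adjusted p = 0.000437). For the response of siDCAF8 minus siNS 15 of 19 were called higher and 0 lower, against 11% and 9.84% of all tested genes, with a median of 1.03, and CHAC1 at 2.49 (adjusted p = 1.78e-06).

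Other ER folding factors, 33 tested, were called 9 higher and 9 lower by erastin in siDCAF8, 0 and 0 in oeWDR76, 2 and 2 in siDCAF8+siLSH, and 3 and 10 in siNS. The shares of all tested genes just given are the background for these counts under erastin, and many of the counts lie near it. HSPA13, a microsomal HSP70-like protein, was called higher in siDCAF8 (0.45, adjusted p = 0.00265) and lower in siNS (-0.59, adjusted p = 0.000376). Other degradation factors, 27 tested, were called 4 higher and 6 lower in siDCAF8 and 3 and 4 in siNS, with YOD1, a deubiquitinase, higher in both (0.55 and 0.59, adjusted p = 0.000148 and 7.82e-05). Of 25 N-glycosylation genes, 6 were called higher and 6 lower in siDCAF8 and 1 and 3 in siNS. Of 24 genes of translocation and signal peptide cleavage, 7 and 2 were called in siDCAF8 and 2 and 0 in siNS. Of 30 genes of ER to Golgi transport, 10 and 5 were called in siDCAF8 and 9 and 1 in siNS, with SEC24A, a paralog of SEC24D, higher in siNS (0.56, adjusted p = 8.13e-05). Against siNS without erastin, 3 of these 30 were called higher and 14 lower in siDCAF8, beside 31% and 29.9% of all tested genes, with KDELR3, a receptor that returns ER proteins from the Golgi, at -1.16 (adjusted p = 1.52e-09). In oeWDR76 7 were called higher and 19 lower, beside 41.6% and 32%, led by MCFD2, a cargo receptor subunit, at -1.14 (adjusted p = 3.28e-11). Of 16 other stress sensors and their processing factors, 3 and 1 were called in siDCAF8 and 5 and 5 in siNS.

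The 9 members with an ERSE or ERSE-II in their window were set beside the 19 with a window and no such match, with no test. The search took exact letters in a short window. The 19 may therefore hold elements that differ in a letter or lie outside the window. Of the 9, 1 was called higher and 5 lower under erastin in siDCAF8, 0 and 0 in oeWDR76, 1 and 0 in siDCAF8+siLSH, and 4 and 1 in siNS. For the 19, the counts were 3 and 9, 0 and 0, 1 and 4, and 4 and 3. Of all tested genes 18.3% and 22.5%, 0.471% and 0.977%, 10.6% and 9.54%, and 15.1% and 22.4% were called higher and lower in these states. Median log2 differences in siNS were 0.13 with and 0.02 without an exact match, and in siDCAF8 -0.17 and -0.18. In oeWDR76 against siNS without erastin, 5 of 9 with an exact match were called higher and 1 lower (median 0.40). Of the 19 without, 8 were called higher and 8 lower (median -0.13). Of all tested genes 41.6% were called higher and 32% lower there. In siNS under erastin, HSPA5, HSP90B1, SDF2L1 and HERPUD1 were the 4 called higher with an exact match and XBP1 was the 1 called lower.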

How the data were processed

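RNA of 16 HT-1080 libraries (8 groups of 2, named by the labels) was extracted with Trizol, amplified with Smart-seq v4, made into libraries with a NEBNext Ultra DNA kit and sequenced on a BGISEQ500, per the labels' protocols. The authors deposited FPKM for genes by library with 2 decimals. StringTie and GRCh38 are named in the submitters' processing notes. Not given in the sources used here are tool versions, the aligner and the annotation. The table holds 24107 entries, of which 17552 carry values, after 28 symbols turned into dates were restored. It gives no counts. In 63 to 87 short genes per library, values times length fell in a narrow range set beforehand. If the median of those values is 1 fragment, each library holds 16.0 to 16.7 M fragments. The preset range itself limits this answer, so it cannot show whether libraries differed in depth. All labels carry the erastin text, and treatment was read from the group names.

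log2(FPKM + 1) of 11260 genes averaging 1 FPKM or more was fitted with 8 group means in limma 3.58.1 (R 4.3.3, eBayes with trend, 8 residual and 8.57 prior degrees of freedom). Tests were two-sided, with Benjamini-Hochberg adjustment within each of 15 contrasts and calls at an adjusted p under 0.05. In simulated data with 200 genes changed, a change of 0.3 log2 was called in 31.1% of them for erastin in siNS. For the response of siDCAF8 minus siNS it was called in 0.1%. At 0.5 log2 these shares were 87.4% and 54.4%, and at 1 log2 98.9% and 96.3%. Many more genes were called in the data, so these shares need not hold there. A small difference that was not called may still be present. Differences and their SE are log2; folds of low genes are understated. Alternatives were a pseudocount of 0.1, no filter, a filter of 5 FPKM, median-ratio scaling, quantile normalization, a replicate block, a fit restricted to the compared groups, regression on GC content and length (11228 genes), and leaving out each library. Python 3.11.15, pandas 2.3.3 and numpy 2.4.6 prepared tables, and matplotlib 3.10.9 drew plots. Promoter windows are RefSeq's on GRCh38.p14, and exon overlaps are from GENCODE on GRCh38.

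Members and lists were chosen with earlier results of these data known, so no list result is independent support. Named are all members, the 3 targeted genes and, from each list and comparison described, genes among the 3 called with the largest log2 difference. Protein sequences were not analysed here.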

Additional observations from a re-analysis of the deposited data

Results flagged for a closer look

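The results here are those in which the erastin response itself differed between 2 states of the cells, by limma's test of that difference. They are log2 values with n = 2 libraries a group, and the comparisons share libraries.

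For siDCAF8 minus siNS the response was higher for XBP1 (0.79) and ATF6 (0.31). Among chaperones and cochaperones it was -0.98 for HSPA5, -0.56 for HSP90B1, -0.38 for HYOU1, -0.37 for DNAJB11, -0.59 for DNAJC3 and -1.52 for SDF2L1. Among lectins and isomerases it was -0.66 for CALR, -0.24 for P4HB, -0.37 for PDIA3, -0.54 for PDIA4, -0.35 for PDIA6 and -0.31 for TXNDC5. The secreted proteins MANF and CRELD2 gave -1.11 and -0.84, and the degradation factors HERPUD1 and OS9 gave -0.56 and -0.22.

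For oeWDR76 minus siNS it was -0.84 for HSPA5, -0.36 for HSP90B1, -0.37 for DNAJC3, 0.26 for P4HB, -0.41 for MANF and -0.68 for HERPUD1.

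For siDCAF8+siLSH minus siDCAF8 it was 0.38 for HYOU1, 0.61 for SDF2L1, 0.59 for CALR, 0.48 for P4HB, 0.34 for PDIA4, 0.82 for CRELD2, 0.45 for WFS1, 0.37 for SYVN1 and 0.31 for OS9. GC content moved with these values, as given above, and its part in them was not tested beyond the correction.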

How the results depend on the processing

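With 2 libraries a group, some calls rested on 1 library. Under erastin 11 of 19 member calls in siDCAF8 and 8 of 13 in siNS held without each library. For siDCAF8 against siNS with erastin 25 of 28 held. For single genes, a fit was counted for each gene, comparison and library left out. Of these fits 12158 kept their side of the threshold, 475 lost a call and 55 gained one. Most left out a library outside the comparison, and a difference uncalled both times counts as kept whatever its direction. Under the other alternatives 6033 fits kept their side of the threshold, 209 lost a call, 61 gained one and 9 reversed. The reversed ones were all in oeWDR76 against siNS: without erastin XBP1 (-0.20 under quantile normalization, -0.24 after correction for GC content and length) and SEC61B (-0.016 and -0.088), and with erastin XBP1 (-0.19 after the correction), OS9 (-0.088 and -0.094) and SEC61B (-0.075 and -0.18). Members called for the response of siDCAF8+siLSH minus siDCAF8 numbered 9, but 5 with no filter and 3 after the correction. All genes called for it numbered 2642, but 1755 with no filter, 279 after the correction and 1696 in a fit of only the groups compared. For erastin in oeWDR76, 163 genes were called, but 84 with no filter and 270 in a fit of only the groups compared. The cause was not tested.

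Members called when each library was left out ranged as follows: erastin in siDCAF8 13 to 21, in oeWDR76 0 to 0, in siDCAF8+siLSH 3 to 7 and in siNS 8 to 15; against siNS without and with erastin, siDCAF8 14 to 19 and 26 to 28, oeWDR76 23 to 25 and 23 to 27, siDCAF8+siLSH 20 to 23 and 19 to 24; siDCAF8+siLSH against siDCAF8 12 to 20 and 17 to 22. The responses ranged from 13 to 19 for siDCAF8 minus siNS, 2 to 7 for oeWDR76 minus siNS and 4 to 10 for siDCAF8+siLSH minus siDCAF8. All genes called, in the same order, ranged from 3021 to 4760, 27 to 178, 1247 to 2285 and 2796 to 4385; 5887 to 6975 and 6309 to 7365, 7487 to 8374 and 7837 to 8638, 6494 to 7550 and 6448 to 7536; 3726 to 5447 and 4301 to 5701; and 1315 to 2494, 906 to 1738 and 1008 to 3003.

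The labels state no pairing of libraries by replicate number. Deviations of same-numbered libraries correlated at a median of 0.016 over 28 pairs of groups (-0.208 to 0.389). The value was over 0.1 in 7 pairs and under -0.1 in 7. This cannot show whether libraries of some groups were paired. With the replicate number as a block, 13 members were called under erastin in siNS, 20 in siDCAF8 and 18 for their difference, and no count of calls moved by over 1.5 times.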
